A study of Drosophila melanogaster with 31 samples.

Results

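Ovaries with germline RNAi against twister (tst) were compared with adult wild type ovaries of Drosophila melanogaster, using the 2 poly(A) RNA-seq libraries of each group. These 4 libraries were chosen by their labels from the 31 samples of the series, and each RNAi library was read against the wild type library with the same replicate number. The RNAi flies carried UAS-Dcr2 and a nanos-GAL4 driver of a tst RNAi construct. The wild type flies are labelled w[1118] with UAS-Dcr-2.D and GAL4-nos.NGT transgenes, both marked with w[+mC], so by the labels a Dicer-2 transgene and the driver were in both groups. The level of w goes against that label, since it was at 0.362 and 0.213 TPM in the 2 wild type libraries and at 146 TPM in a control input of the same labelled genotype. Whether the wild type ovaries carried these transgenes was not tested. Whole ovaries were dissected 1-3 days after eclosion in both. The hairpin line is not given in the sources used here. Beside them stand 2 libraries of the tst mutant (tstMB10212 over the deficiency Df(3R)Exel9013, of the same age). A further 2 are of the same wild type genotype dissected 0-3 hours after eclosion (young wild type). Input libraries, which are the total mRNA of polysome gradients, were also used, all of 1-3 days. They are of tst RNAi, the pelo mutant, bam RNAi (1 library) and controls. The first control input is labelled with the adult wild type genotype and the second as pelo1/CyO.

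The product of tst is the Drosophila Ski2 helicase, a part of the cytoplasmic Ski complex, which unwinds mRNAs and threads them into the RNA exosome for decay from the 3′ end. The nanos driver acts in germ cells, so that follicle cells, the muscle sheath and other somatic tissue of the ovary should keep tst. In the germarium at the tip of each ovariole, stem cell daughters divide under the control of bam, enter meiosis and set aside an oocyte, and the germ cells then pass to the expression of maternal mRNAs. Follicle cells later lay down the vitelline membrane and the chorion of the egg. The comparison addresses whether loss of this decay activity from germ cells changes that passage.

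Levels are in TPM, which scale reads by gene length and to one total per library. Each of the 4 libraries summed to the same total over 9251 genes, and 7493 and 7561 genes reached 1 TPM in wild type against 8029 and 8003 in tst RNAi. The 10 most abundant genes held 10.2% and 10.1% of the total in wild type and 8.35% and 8.19% in tst RNAi. The depth of sequencing is unknown because TPM hold no read counts. The labels do not say whether replicates came from separate flies, so p-values measure only the spread between these samples. In bulk ovaries, fewer cells of a type and less RNA per cell cannot be told apart.

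In replicates 1 and 2, an order kept throughout, tst stood at 35.3 and 39.6 TPM in the adult wild type libraries and at 6.77 and 11.7 TPM in the RNAi libraries. Both RNAi libraries lay below both wild type libraries, with -1.95 as the difference of log2(TPM + 1) (SE 0.24, adjusted p = 0.00198). The call held without each of the 4 libraries in turn, with adjusted p from 0.00455 to 0.0433, and was lost without the replicate block (adjusted p = 0.0544). The tst mutant lay -2.19 from the same wild type libraries, and no difference between mutant and RNAi was called (adjusted p = 0.501). The gene spans 3R:23768399-23772859 in dm6, the build of the files. None of the 17 other Ski, exosome and ribosome rescue genes passed, and the list had a median of 0.02. Among them, the exosome cap gene Csl4 was at 79.1 and 64.8 TPM in wild type and 96.8 and 87.2 TPM in tst RNAi (log2 difference 0.36, adjusted p = 0.267).

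Far more genes were higher than lower in tst RNAi ovaries. Of 8675 genes tested, 422 rose (4.86%) and 64 fell (0.738%) at an adjusted p under 0.05 in limma, in a fit with a term for the replicate number (the block). The block was used because like-numbered replicates were to be compared and the strand label differs between replicates 1 and 2 in all 4 groups. Like-numbered libraries also deviated together from their group means, with correlations of 0.620 to 0.766 among the 4 groups in the fit. Without the block, 131 genes rose (1.51%) and 5 fell (0.0576%), and all of these were also called with it. Quantile normalization gave 200 rises and 104 falls, which lowered the share of rises among the calls from 86.8% to 65.8%. The counts also rest on each library, since 113 genes were called without RNAi replicate 1, 159 without RNAi replicate 2, 213 without wild type replicate 1 and 389 without wild type replicate 2. In both like-numbered pairs, 498 genes were at least 2-fold higher on the log2(TPM + 1) scale (5.74%) and 52 at least 2-fold lower (0.599%), and 1 gene went opposite ways. The median difference over all tested genes was 0.04.

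**Figure D1:**
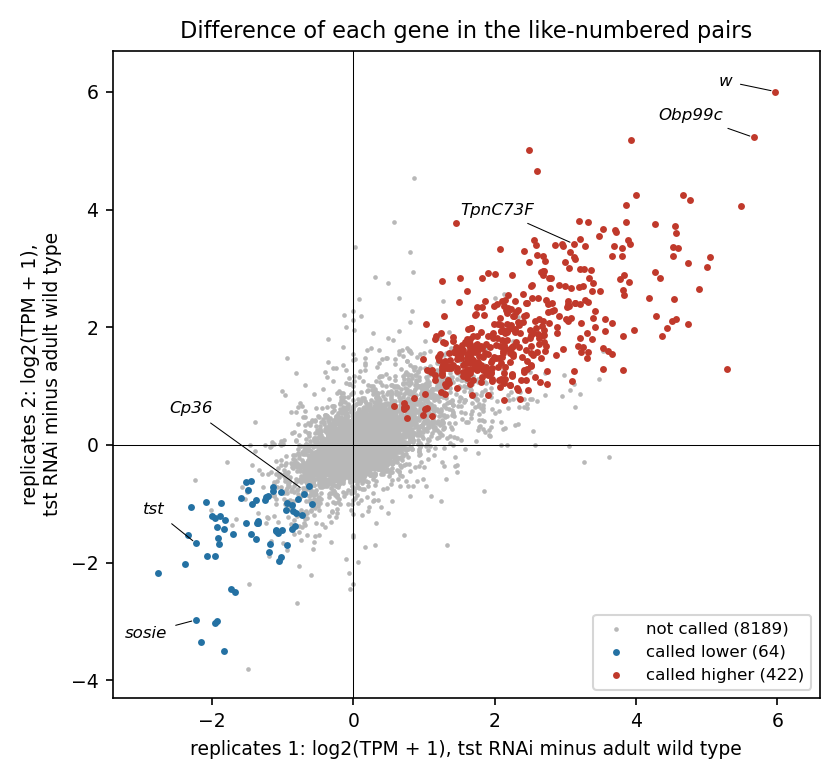
Each point is 1 of 8675 tested genes, placed by the difference of log2(TPM + 1) between tst RNAi and adult wild type in replicates 1 (x axis) and in replicates 2 (y axis). Red points are the 422 genes called higher and blue points the 64 called lower, and called genes lie in the upper right and lower left, with w farthest up in both pairs.

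The rises were of weakly expressed genes. Their median level was 1.37 TPM in wild type and 11.8 TPM in tst RNAi, against a median of 37.8 TPM in wild type over all tested genes. Of the 422, 178 had a wild type mean under 1 TPM, 37 reached a mean of 100 TPM in tst RNAi, and 219 rose at least 4-fold on the log2(TPM + 1) scale. Summed over the 422 genes, levels were 6144 and 5350 TPM in wild type and 28047 and 18748 TPM in tst RNAi. RNAi replicate 1 was at least 2-fold above replicate 2 for 92 of them and replicate 2 above replicate 1 for 12. The falls had medians of 45.8 TPM in wild type and 15.3 TPM in tst RNAi, and 9 of 64 fell at least 4-fold. Rises are low and falls high in wild type partly because they were chosen by their difference from it.

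The largest rise was of w, which encodes the ABC transporter subunit of eye pigment granules and marks transgenes in fly stocks. It was at 0.362 and 0.213 TPM in wild type and 84.3 and 77 TPM in tst RNAi, a log2 difference of 5.99 (SE 0.32, adjusted p = 6.07e-05). The tst mutant differed from the same wild type by 0.57, and RNAi lay above the mutant (adjusted p = 1.33e-04). In the inputs the difference was 0.36 (adjusted p = 0.752). A change of w in these stocks cannot be told apart from the w alleles and w-marked transgenes that the genotypes carry, since the label of the RNAi flies names no w allele.

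The 20 largest rises described next are those that averaged 10 TPM or more in tst RNAi and whose groups did not overlap, and several have a product of known kind. The odorant binding protein gene Obp99c was at 2.55 and 0.25 TPM in wild type and 179 and 45.8 TPM in tst RNAi (log2 difference 5.45, SE 0.32, adjusted p = 6.96e-05, 0.0792 without the block). Replicate 1 was well above replicate 2 in tst RNAi. The desaturase gene Fad2, which acts in the synthesis of female cuticular pheromones, was at 1.42 and 0.254 TPM in wild type and 54.6 and 10.7 TPM in tst RNAi (log2 difference 3.87, adjusted p = 0.00449), and lost the call without the block (0.149) and without RNAi replicate 1 (0.0954). Nplp2, which encodes a neuropeptide-like precursor, rose by 4.01, from 15.1 and 5.74 to 309 and 89.6 TPM (adjusted p = 1.50e-04, 0.16 without the block). Against the same wild type, Obp99c, Fad2 and Nplp2 differed by 4.36, -0.45 and 3.35 in young wild type. In the mutant they differed by 4.86, 3.38 and 3.45.

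For others of the 20 no function is given here. CG13067 was at 8.37 and 10.4 TPM in wild type and 149 and 215 TPM in tst RNAi (log2 difference 4.12, SE 0.16, adjusted p = 8.26e-06), with the RNAi libraries far above the wild type ones in both pairs. CG11852, listed as Jhbp7 in RefSeq, was at 0.963 and 1.36 TPM in wild type and 52.4 and 41.3 TPM in tst RNAi (4.47, adjusted p = 9.47e-05), and CG8012 at 4.82 and 3.13 TPM in wild type and 83.7 and 56.1 TPM in tst RNAi (3.83, adjusted p = 4.58e-05). These 3 kept the call without the block and without each library in turn. They lay 5.19, 6.41 and 3.43 above adult wild type in young wild type, and 3.06, 3.85 and 3.40 above it in the mutant. CG42857 was at 6.86 and 4.03 TPM in wild type and 113 and 84.3 TPM in tst RNAi (3.97, adjusted p = 0.00505). The mutant lay at -0.05 and young wild type at -0.29 from the same wild type. RNAi was above the mutant for CG42857 (adjusted p = 0.00457), and its call against wild type was lost without RNAi replicate 1 (adjusted p = 0.10). The noncoding RNA gene lncRNA:CR40469 was at 2.53 and 14.4 TPM in wild type and 52.8 and 559 TPM in tst RNAi, so that the libraries of each group differed more than 5-fold among themselves while both pairs rose (4.55, adjusted p = 0.0024, 0.398 without the block).

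Of the copies of ribosomal protein genes, RpS10a and RpL22-like, near 0 in wild type ovaries, rose in tst RNAi. RpS10a, a copy of the ribosomal protein gene RpS10b, was at 0.256 and 0.552 TPM in wild type and 29.3 and 14.7 TPM in tst RNAi (log2 difference 3.97, SE 0.39, adjusted p = 8.08e-04). RpL22-like, the testis-enriched copy of RpL22, was at 0.125 and 0.068 TPM in wild type and 15.7 and 6.28 TPM in tst RNAi (3.33, SE 0.38, adjusted p = 0.00167). In each case both RNAi libraries lay above both wild type libraries, the higher one was replicate 1, and the call held without the block and without each library in turn. A further copy known from early germ cells, RpS19b, was at 2.67 and 1.25 TPM in wild type and 4.91 and 5.92 TPM in tst RNAi and missed the threshold (1.15, adjusted p = 0.0548). In the input library of bam RNAi ovaries, RpS10a was at 250.9 TPM, RpL22-like at 81.0 TPM and RpS19b at 689.3 TPM. RpS10a and RpL22-like were the only rises among 17 copies of duplicated ribosomal protein genes and among all 86 cytosolic ribosomal protein genes. Over all tested genes, 4.86% rose. The 86 genes had 70 positive and 16 negative differences, with a median of 0.08. The partner copies RpS10b (log2 difference 0.03) and RpL22 (-0.11) did not pass. Reads shared between close copies may have been assigned unevenly in the authors' counting.

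The double-stranded RNA binding protein gene blanks, which acts in sperm formation, was at 0.244 and 0.592 TPM in wild type and 27.6 and 15.3 TPM in tst RNAi (log2 difference 3.94, SE 0.34, adjusted p = 4.76e-04). The spermatocyte transcription regulator dany was at 0.554 and 0.332 TPM in wild type and 38.4 and 24.3 TPM in tst RNAi (4.46, SE 0.61, adjusted p = 0.00374), a call lost without RNAi replicate 1 (adjusted p = 0.0844). Rpt3R, the testis copy of a proteasome ATPase subunit, was at 0.80 and 0.747 TPM in wild type and 11.9 and 7.57 TPM in tst RNAi (2.57, adjusted p = 0.00215). Groups did not overlap for any of these genes, and blanks and Rpt3R kept the call without each library. In the input library of bam RNAi ovaries, which hold undifferentiated germ cells, blanks was at 193.5 TPM, Rpt3R at 70.8 TPM and dany at 6.26 TPM. Of 22 testis genes listed in the files, 12 passed the level filter. Among these dany and Rpt3R were the only calls, where 4.86% of all tested genes rose, and the median was 0.18. Of 6 testis markers, the 3 in the table (aly, Mst87F and betaTub85D) summed to 1.08 and 0.440 TPM in wild type and 0.627 and 0.604 TPM in tst RNAi. In the mutant, Rpt6R, another proteasome copy, lay 5.40 above wild type, whereas in tst RNAi it was at 2.26 and 1.45 TPM against 0.589 and 0.693 TPM, lower than in the mutant (adjusted p = 1.33e-04).

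Most genes of germ cell differentiation did not pass the test, where 4.86% of all tested genes rose and 0.738% fell. Of 25 tested, 1 rose, tut (tumorous testis), a partner of bam in male germ cells, at 12.5 and 17.5 TPM in wild type and 54.9 and 45.6 TPM in tst RNAi (log2 difference 1.69, SE 0.38, adjusted p = 0.0329). RNAi lay above the mutant for tut (adjusted p = 0.00521), whose difference from wild type was -0.83. The tut call was lost without the block (adjusted p = 0.225) and without RNAi replicate 1 (0.38), wild type replicate 1 (0.0999) or wild type replicate 2 (0.129). Rbp9, an Elav-family RNA binding protein of differentiating cysts, was at 0.721 and 1.1 TPM in wild type and 4.18 and 3.13 TPM in tst RNAi (1.28, adjusted p = 0.0602). The differentiation gene bam itself was at 62.7 and 74.5 TPM in wild type and 54.5 and 49.1 TPM in tst RNAi, with no call.

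Of 30 meiosis genes, corolla was the only rise, where 4.86% of all tested genes rose. It encodes a central region protein of the synaptonemal complex and was at 3.24 and 3.32 TPM in wild type and 9.27 and 10.5 TPM in tst RNAi (log2 difference 1.34, SE 0.24, adjusted p = 0.0111). That call was lost without the block (adjusted p = 0.0544) and without any 1 of the 4 libraries (adjusted p from 0.0948 to 0.123). Its fellow central region gene c(3)G was at 38.4 and 46.4 TPM in wild type and 28.5 and 33.4 TPM in tst RNAi (-0.44, adjusted p = 0.226), and cona, another partner, at 1.72 and 1.75 TPM in wild type and 2.24 and 4.51 TPM in tst RNAi (0.63, adjusted p = 0.413).

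**Figure D2:**
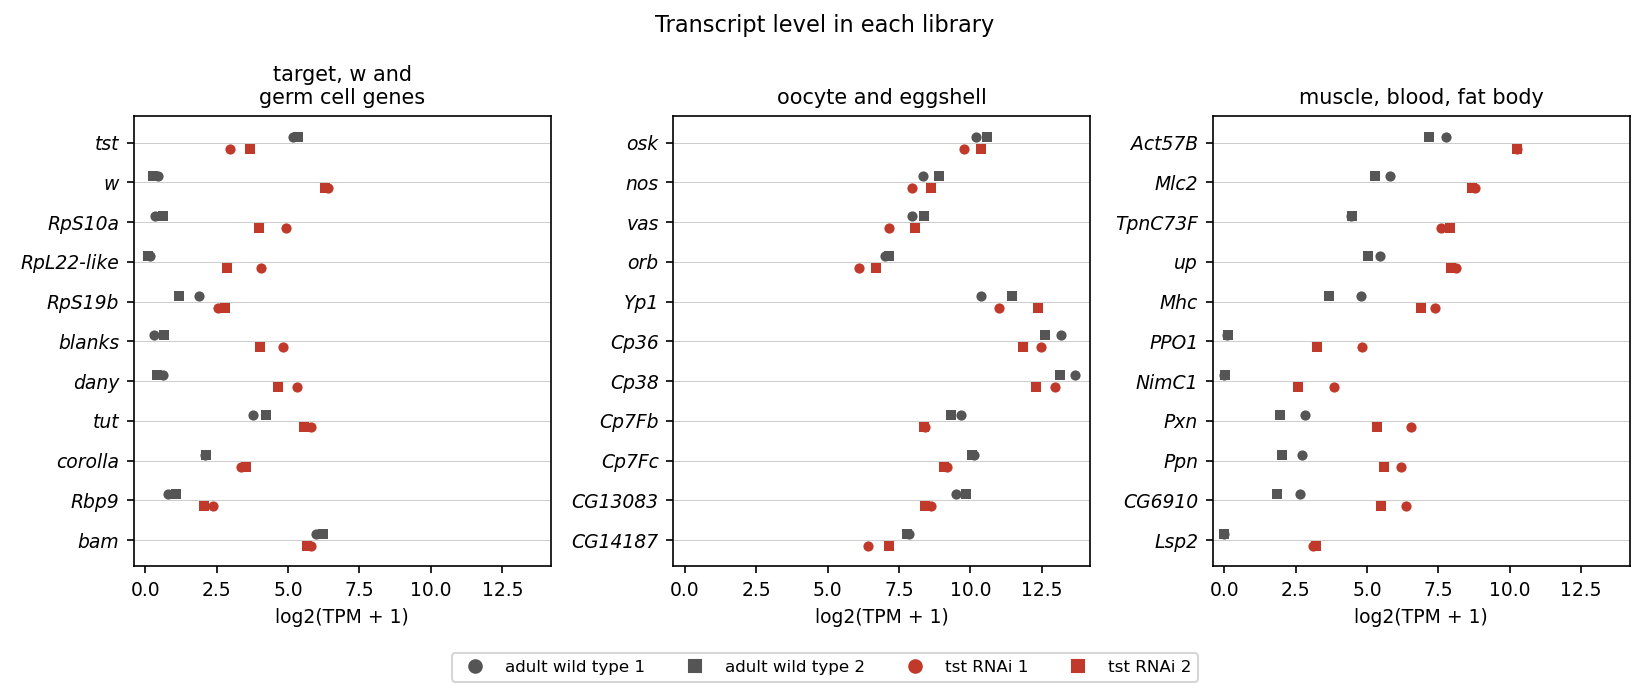
Levels of selected genes as log2(TPM + 1) on the x axis, with 1 row per gene, grey for adult wild type and red for tst RNAi, circles for replicate 1 and squares for replicate 2. RpS10a, RpL22-like, blanks, dany and the blood cell genes lie near 0 or low in wild type and higher in both RNAi libraries. The muscle genes lie higher in both RNAi libraries too, from wild type levels as high as 216 TPM for Act57B. The groups overlap for osk and nos, and Cp7Fb and Cp7Fc lie lower in both RNAi libraries.

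A broader set was taken from the input library of bam RNAi ovaries, which hold undifferentiated germ cells. It contains the 784 genes with at least 5 TPM there and a log2(TPM + 1) value that exceeds the higher control input by at least 2, and none of those libraries is in the comparison here. Of 762 tested members, 322 rose and 1 fell, or 42.3% called higher against 4.86% of all tested genes, with a median of 1.19. Against the same wild type, the median was 1.73 in young wild type and 1.64 in the mutant. The set made up 8.78% of the tested genes and 76.3% of the rises. Without the block 115 members rose, and without 1 library the count ran from 87 (without RNAi replicate 1) and 121 (without RNAi replicate 2) to 161 and 276 (without wild type replicates 1 and 2). The set is not one of germ cells alone, since muscle, blood cell and fat body genes are in it. With the members of the somatic lists left out, 284 of 700 rose and none fell, with a median of 1.15. Somatic genes outside those lists were not removed, so the 700 may not be germ cell genes alone.

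Maternal and small RNA genes showed no calls, where 4.86% of all tested genes rose and 0.738% fell. None of 51 maternal and oocyte genes passed, although 43 had negative and 8 positive differences, and the median was -0.16. Over all tested genes 3712 differences were negative and 4963 positive. The germ plasm organizer osk was at 1166 and 1519.7 TPM in wild type and 884 and 1337 TPM in tst RNAi, and nos, the posterior determinant it localizes, at 320.4 and 479 TPM in wild type and 249.7 and 393 TPM in tst RNAi. Wild type and RNAi values overlapped for both. The translational regulator orb was at 129 and 141 TPM in wild type and 67.5 and 102 TPM in tst RNAi, below wild type in both libraries (-0.69, adjusted p = 0.0575), and the RNA helicase vas was at 249.5 and 334 TPM in wild type and 141 and 265 TPM in tst RNAi (-0.58, adjusted p = 0.0989). None of 39 piRNA pathway genes passed, with 32 positive and 7 negative differences and a median of 0.11. The gene rhi, of the heterochromatin protein of piRNA clusters, was at 26.8 and 35.1 TPM in wild type and 45 and 46.1 TPM in tst RNAi (0.56, adjusted p = 0.293). None of 29 genes of deadenylation, decapping and nonsense-mediated decay passed, with 23 negative and 6 positive differences (median -0.10). The 6 germline markers summed to 2014 and 2657 TPM in wild type and 1479 and 2275 TPM in tst RNAi, and none was called.

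Eggshell genes were modestly lower, and few passed the test, where 0.738% of all tested genes fell. Of 19 chorion genes, 18 had negative differences and 2 fell, Cp7Fb and Cp7Fc, with a list median of -0.75. Cp7Fb was at 816 and 632 TPM in wild type and 342 and 329.9 TPM in tst RNAi (log2 difference -1.09, SE 0.21, adjusted p = 0.0181), and Cp7Fc at 1112 and 1066 TPM in wild type and 583 and 534 TPM in tst RNAi (-0.96, SE 0.22, adjusted p = 0.0401). Both genes kept their groups apart, but no chorion gene was called without the block, without RNAi replicate 2 or without wild type replicate 1. These 2 also lost the call without RNAi replicate 1 (adjusted p = 0.14 and 0.10). The major chorion genes were lower in both RNAi libraries than in their like-numbered wild type library without passing, as for Cp36 at 9280.1 and 6290.2 TPM in wild type and 5701 and 3701 TPM in tst RNAi (-0.73, adjusted p = 0.317) and Cp38 at 12997 and 8914 TPM in wild type and 8068 and 5053 TPM in tst RNAi (-0.75, adjusted p = 0.311). The late chorion gene Cp18 was at 4734 and 4592 TPM in wild type and 4579 and 839 TPM in tst RNAi (-1.25, adjusted p = 0.561), a difference carried by replicate 2.

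Of 25 vitelline membrane and associated genes, 24 had negative differences and 2 fell, with a median of -0.46. CG13083 was at 726 and 922 TPM in wild type and 398 and 342 TPM in tst RNAi (log2 difference -1.15, adjusted p = 0.0455), and CG14187 at 230.1 and 217.8 TPM in wild type and 84.2 and 143 TPM in tst RNAi (-1.02, adjusted p = 0.029). Both lost the call without the block and without wild type replicate 1 (adjusted p = 0.251 and 0.532), and without RNAi replicate 1 (0.0512 and 0.342) or RNAi replicate 2 (0.42 and 0.0636). CG13083 also lost it without wild type replicate 2 (0.121). Vm26Aa, a structural protein of the membrane, was at 11682 and 5784 TPM in wild type and 8822 and 5645 TPM in tst RNAi, with overlapping groups. No yolk gene passed, although the yolk protein gene Yp1 was higher in each pair, at 1332 and 2826 TPM in wild type and 2035 and 5329.8 TPM in tst RNAi (0.76, adjusted p = 0.051). The yolk receptor gene yl was at 1163 and 732 TPM in wild type and 810.2 and 643 TPM in tst RNAi (-0.35, adjusted p = 0.785).

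Most contractile genes of the muscle sheath rose. Of 26 tested, 17 rose and none fell, with a median of 2.19, and 13 rose without the block. Of all tested genes, 4.86% rose. The list's median also lay 3.41 above adult wild type in young wild type and 2.10 above it in the mutant, where 21 were called higher. TpnC73F, a troponin C, was at 21 and 21.3 TPM in wild type and 190.2 and 237 TPM in tst RNAi (log2 difference 3.27, SE 0.20, adjusted p = 9.44e-05). The myosin light chain gene Mlc2 was at 55.3 and 38.1 TPM in wild type and 439 and 406 TPM in tst RNAi (3.17, SE 0.20, adjusted p = 9.44e-05), and the actin gene Act57B at 216 and 142 TPM in wild type and 1209.7 and 1231 TPM in tst RNAi (2.79). Both RNAi libraries were high and close to each other for these genes, and the groups did not overlap. The myosin heavy chain gene Mhc was at 26.8 and 11.7 TPM in wild type and 167 and 118 TPM in tst RNAi (2.92, adjusted p = 0.00102). Not called were Tm1 (0.28) and Argk (0.53), and TpnC4, at 1.82 and 6.48 TPM in wild type and 0.418 and 1.37 TPM in tst RNAi (-1.33, adjusted p = 0.0893). Summed over the list, levels were 882 and 685 TPM in wild type and 3796 and 3545 TPM in tst RNAi.

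Among genes of blood cells and basement membrane, 12 rose, some of them from near 0. The list of hemocyte and basement membrane genes had 24 tested members, of which none fell and 4 had negative differences, with a median of 0.90. Over all tested genes, 4.86% rose. Against the same wild type, the median was 1.99 in young wild type and 2.08 in the mutant. Without the block 4 rose, and without RNAi replicate 1 only 3 did. The crystal cell prophenoloxidase gene PPO1 was at 0.066 and 0.107 TPM in wild type and 27.3 and 8.44 TPM in tst RNAi (log2 difference 3.91, SE 0.46, adjusted p = 0.0018), and the phagocytosis receptor gene NimC1 at 0 and 0.025 TPM in wild type and 13.2 and 4.98 TPM in tst RNAi (3.19, SE 0.37, adjusted p = 0.00165). Both lost the call by a small margin without RNAi replicate 1 (adjusted p = 0.0513 and 0.0512). The matrix genes Pxn, a peroxidasin, and Ppn, papilin, were at 6.2 and 2.9 TPM in wild type and 91.7 and 39.8 TPM in tst RNAi (3.54) and at 5.58 and 3.1 TPM in wild type and 72.5 and 47.1 TPM in tst RNAi (3.52). These 2 kept the call without each library in turn. The collagen IV genes Col4a1 and vkg, which follicle cells also express, did not pass, with differences of 0.78 and 0.63.

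Fewer than 1 in 2 of the fat body genes rose. The share of all tested genes that rose, 4.86%, stands beside this list and the gut list below. Of 21 tested, 8 rose, none fell and 5 had negative differences, and the list median was 2.19 in replicates 1 and 0.85 in replicates 2. Without the block, 2 rose, and 2 rose without RNAi replicate 1, 2 without RNAi replicate 2 and 4 without wild type replicate 1. CG6910, the myo-inositol oxygenase gene, was at 5.24 and 2.64 TPM in wild type and 81.3 and 43.6 TPM in tst RNAi (log2 difference 3.67, SE 0.24, adjusted p = 9.72e-05). The storage protein genes Lsp2 and Lsp1beta were at 0 and 0 TPM in wild type and 7.74 and 8.18 TPM in tst RNAi (3.16) and at 0.902 and 0.030 TPM in wild type and 49.6 and 3.26 TPM in tst RNAi (3.39, adjusted p = 0.0129, 0.568 without the block), so that only Lsp2 was alike in the RNAi libraries. Lsp1beta lost the call without RNAi replicate 1 (0.221) or RNAi replicate 2 (0.0616). Of 11 gut and oviduct genes listed in the files, 7 passed the level filter, which a gene can pass through the RNAi libraries alone, and 2 rose, the digestive protease genes betaTry and Jon65Aiv, both listed at 0 in wild type. They were at 1.86 and 6.14 and at 1.73 and 12.7 TPM in tst RNAi, higher in replicate 2. Neither was called without the block (adjusted p = 0.0659 and 0.193). The call of betaTry was lost without wild type replicate 2 (0.0691), and that of Jon65Aiv without RNAi replicate 2 (0.366) or wild type replicate 2 (0.152).

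Markers that define these tissues give their levels in each library. The muscle, hemocyte and fat body markers, and all but 1 of the gut markers, are also members of the lists above, so their calls restate those. The 6 muscle sheath markers summed to 369 and 247 TPM in wild type and 2262 and 2168 TPM in tst RNAi, and all 6 rose. The 5 hemocyte markers in the table summed to 0.374 and 0.567 TPM in wild type and 65.5 and 22.6 TPM in tst RNAi, and all 5 rose. The 5 fat body markers summed to 4.11 and 2.61 TPM in wild type and 98.2 and 19.8 TPM in tst RNAi, and 3 rose. The 4 gut markers in the table summed to 0.266 and 0 TPM in wild type and 5.22 and 28.0 TPM in tst RNAi, with alphaTry and betaTry at 0 in both wild type libraries. The sums of the 6 follicle cell markers overlapped, at 22399 and 14999 TPM in wild type and 16656 and 14791 TPM in tst RNAi, and none was called. Yp1, Cp36 and Vm26Aa make up most of these sums. In both pairs Yp1 was higher and Cp36 lower in tst RNAi, so the sums hide opposite differences. The 2 nervous system markers in the table summed to 0.492 and 0.765 TPM in wild type and 1.18 and 1.56 TPM in tst RNAi, with no call. The part of such tissue in the muscle, blood cell, fat body and gut calls, and in the other rises, was not tested.

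**Figure D3:**
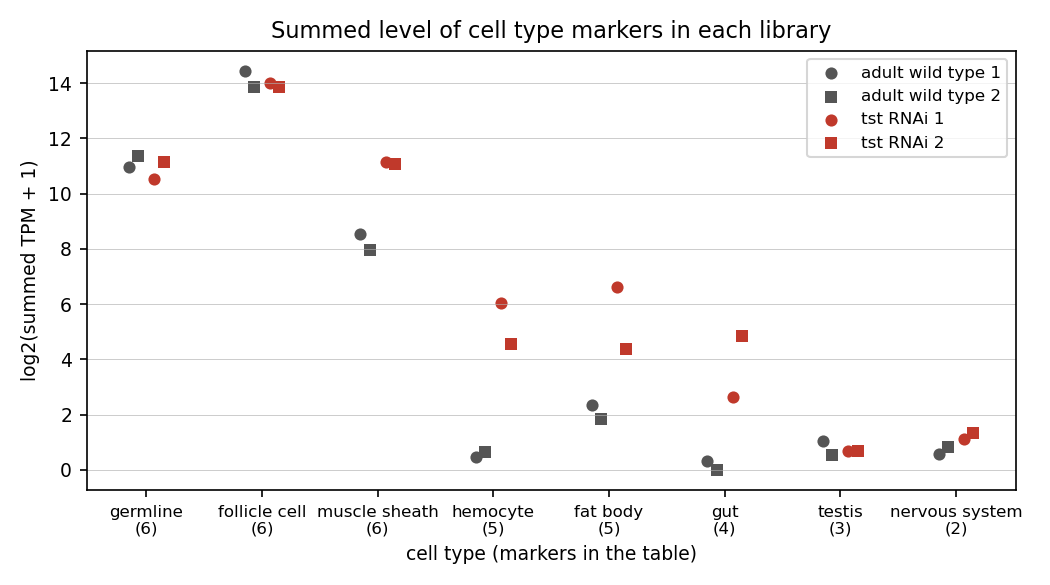
Summed level of the markers of each cell type as log2(summed TPM + 1) on the y axis, grey for adult wild type and red for tst RNAi, with the number of markers in the table in brackets. The muscle, hemocyte, fat body, gut and nervous system sums lie higher in both RNAi libraries than in wild type, and the germline, follicle cell and testis sums overlap.

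**Figure D4:**
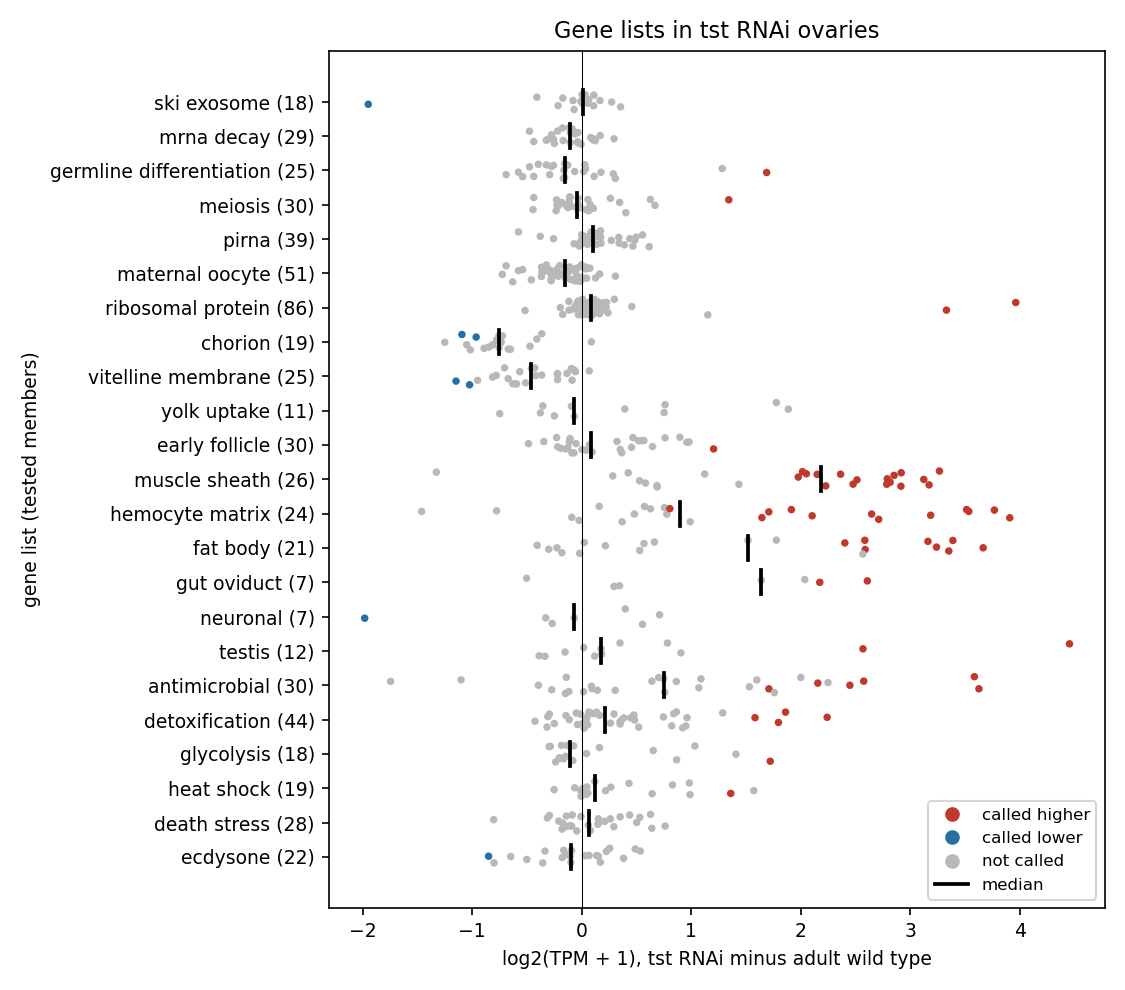
Each point is a tested gene of a list, placed by the difference of log2(TPM + 1) between tst RNAi and adult wild type on the x axis, with red for called higher, blue for called lower and a black bar for the list's median. The muscle sheath list lies farthest to the right with 17 of 26 genes called higher, and the chorion and vitelline membrane lists lie to the left with 2 called lower in each.

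Among stress and metabolic genes the calls were scattered, where 4.86% of all tested genes rose. Of 30 antimicrobial and immune genes, 6 rose and none fell, with a median of 0.76, and none rose without the block. Def, which encodes the peptide defensin, was at 16.9 and 18.6 TPM in wild type and 70.5 and 145 TPM in tst RNAi (log2 difference 2.45, adjusted p = 0.0077, 0.0506 without the block), with the call lost without RNAi replicate 2 (0.116). The Bomanin gene IM2 was at 0 and 0.227 TPM in wild type and 19.2 and 7.8 TPM in tst RNAi (3.59, adjusted p = 0.013), while Dro, the gene of drosocin, was at 13.3 and 46.5 TPM in wild type and 7.25 and 6.36 TPM in tst RNAi, with no call. IM2 lost the call without RNAi replicate 1 (0.16), RNAi replicate 2 (0.134) or wild type replicate 1 (0.0607). Without RNAi replicate 1 the list had 1 rise, without RNAi replicate 2 none, and without wild type replicate 1 it had 2.

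Of 44 detoxification genes, 4 rose, Cyp12a4, GstT4, Cyp6a20 and Cyp6a9. The share of all tested genes that rose, 4.86%, stands beside this count and those of the lists below. The cytochrome P450 gene Cyp12a4 was at 0.912 and 0.246 TPM in wild type and 7.74 and 5.11 TPM in tst RNAi (log2 difference 2.24, adjusted p = 0.00165) and kept the call without the block and each library. The other 3 lost it without the block and without RNAi replicate 1 (adjusted p = 0.137, 0.181 and 0.216, in the order above) or wild type replicate 1 (0.0977, 0.0598 and 0.178). Cyp6a20 and Cyp6a9 also lost it without RNAi replicate 2 (0.065 and 0.055), and Cyp6a20 without wild type replicate 2 (0.0532). Ldh, lactate dehydrogenase, was the 1 rise of 18 glycolysis genes, at 1.27 and 1.33 TPM in wild type and 6.84 and 6.37 TPM in tst RNAi (1.72, adjusted p = 0.00642). It lay 4.01 above wild type in the mutant and was lower in RNAi than there (adjusted p = 0.0023). The Ldh call was lost without RNAi replicate 1 (0.0907), RNAi replicate 2 (0.0888) or wild type replicate 1 (0.080). The small heat shock gene l(2)efl was the 1 rise of 19 chaperone genes, at 17.6 and 12.7 TPM in wild type and 50.5 and 31.6 TPM in tst RNAi (1.36, adjusted p = 0.030, 0.367 without the block), and lost the call without RNAi replicate 1 (0.221), RNAi replicate 2 (0.242) or wild type replicate 1 (0.217). None of 28 cell death and stress genes passed. Wnt2, a germarium signal, was the 1 rise of 30 early follicle and niche genes (1.21, adjusted p = 0.0437), from 0.657 and 0.409 to 3.23 and 1.93 TPM, and was lost without the block (0.282) and without any 1 library (adjusted p from 0.116 to 0.503).

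The falls were fewer. Of the 64 genes, 37 differed from adult wild type by -1 or less in young wild type, and 57 were under 0 in the mutant. The falls were chosen against the same adult wild type libraries, so these counts are partly fixed by that choice. Over all tested genes the medians were -0.06 in young wild type and 0.003 in the mutant. The largest fall was of CG13032, at 3.75 and 9.19 TPM in wild type and 0.065 and 0 TPM in tst RNAi (log2 difference -2.75, adjusted p = 0.0077, 0.0888 without the block). Next come the largest falls that averaged 10 TPM or more in wild type, with groups that did not overlap. CG2187 was at 53.1 and 46.7 TPM in wild type and 6.96 and 9.56 TPM in tst RNAi (log2 difference -2.47, SE 0.24, adjusted p = 7.36e-04), and kept the call without the block and each library. The transmembrane protein gene sosie, which acts in the follicle epithelium, was at 11.3 and 31.2 TPM in wild type and 1.62 and 3.09 TPM in tst RNAi (-2.60, SE 0.34, adjusted p = 0.00272) and spans 3R:24833952-24840488. In the mutant, sosie lay -0.07 from wild type, and RNAi was lower than the mutant (adjusted p = 0.00335). CG6908 was at 12.4 and 17.6 TPM in wild type and 2.77 and 0.645 TPM in tst RNAi (-2.67, adjusted p = 0.0105), and CG42821 at 48.2 and 41.5 TPM in wild type and 11.9 and 4.32 TPM in tst RNAi (-2.47, adjusted p = 0.012). Both lost the call without RNAi replicate 2 (adjusted p = 0.145 and 0.16), and CG6908 without wild type replicate 2 (0.0532). sosie, CG6908 and CG42821 missed the threshold without the block (adjusted p = 0.0666, 0.0563 and 0.0808).

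Other large falls included Sp7, a protease of the melanization cascade, at 20.7 and 18 TPM in wild type and 3.18 and 3.68 TPM in tst RNAi (log2 difference -2.20, adjusted p = 0.0044). The nicotinic receptor subunit gene nAChRalpha4 was at 12.9 and 22.5 TPM in wild type and 2.6 and 5.37 TPM in tst RNAi (-1.92, adjusted p = 0.00609, 0.151 without the block), and amd, which acts in catecholamine metabolism of cuticle, at 46.9 and 33.4 TPM in wild type and 11.6 and 12.1 TPM in tst RNAi (-1.66, adjusted p = 0.00844). Groups did not overlap for any of the 3. All 3 lost the call without RNAi replicate 1 (adjusted p = 0.0847, 0.0954 and 0.14), and the latter 2 also without RNAi replicate 2 (0.0735 and 0.0663) or wild type replicate 1 (0.0524 and 0.129). The synaptotagmin gene Syt4 was at 3.19 and 2.71 TPM in wild type and listed at 0 in both RNAi libraries (adjusted p = 0.00464), 1 of 3 falls listed so. Its call was lost without RNAi replicate 1 (0.10) or RNAi replicate 2 (0.0688). By level, the most abundant falls after Cp7Fc, CG13083 and Cp7Fb were CG14834, at 516 and 477 TPM in wild type and 203 and 189.9 TPM in tst RNAi (-1.33), CG14309, at 486 and 492 TPM in wild type and 169.9 and 316 TPM in tst RNAi (-1.07), and the follicle cell protein gene Fcp3C, at 375 and 459 TPM in wild type and 101 and 232 TPM in tst RNAi (-1.43), chosen after their values were seen. CG14834 kept the call without the block and each library. CG14309 and Fcp3C lost it without the block (0.376 and 0.166), without RNAi replicate 1 (0.36 and 0.0723) or wild type replicate 1 (0.503 and 0.0738), and CG14309 without RNAi replicate 2 (0.122).

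RNAi and the mutant were compared directly in the same fit. The wild type libraries do not enter the difference between them. They do enter the level filter, the block term and the spread behind the p-values. RNAi was higher for 732 genes (8.44%) and lower for 698 (8.05%). With equal library medians the counts were 564 and 971, which lowered the share called higher from 51.2% to 36.7% and the median of all genes from 0.08 to -0.08. Without the block they were 54 and 121. Of the 422 genes that rose in RNAi, 43 were higher than in the mutant, 25 lower and 354 not called different. Of the 64 that fell, 10 were higher, 18 lower and 36 not called different.

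Many eggshell genes were higher in RNAi than in the mutant. RNAi was above the mutant for 19 of 25 vitelline membrane genes, 13 of 19 chorion genes and 25 of 51 maternal genes, with medians of 1.66, 2.19 and 0.80. Without the block 8, 9 and 1 were called higher, and with equal medians 17, 13 and 22. Cp36 was at 838 and 953 TPM in the mutant and 5701 and 3701 TPM in RNAi (adjusted p = 0.00337), against 9280.1 and 6290.2 TPM in wild type. The thioredoxin gene dhd, a maternal mRNA needed at fertilization, was at 929 and 3215 TPM in the mutant and 5442 and 4925 TPM in RNAi (adjusted p = 0.0296). Among the 26 muscle genes 1 was higher and none lower than in the mutant, and among the 44 detoxification genes 2 were higher and 15 lower. For blanks RNAi was higher (adjusted p = 0.00779), with the mutant at 3.64 and 4.47 TPM, and for RpS19b it was lower (adjusted p = 0.0155), with the mutant at 17 and 15.5 TPM.

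The input libraries give the same RNAi genotype in samples that the comparison did not use. The 2 tst RNAi inputs were set against 2 control inputs, of which the first is labelled with the adult wild type genotype and the second as pelo1/CyO. The pelo mutant inputs were in the same fit and share in its level filter and its estimate of the spread. In the inputs 1828 of 8426 genes rose (21.7%) and 2720 fell (32.3%). With equal library medians 3089 rose and 1497 fell, as that scaling raised the median of all genes from -0.17 to 0.27. Without the second RNAi input the total fell from 4548 to 2875. The 6 germline markers summed to 1907 and 1555 TPM in the control inputs and 729 and 662 TPM in the RNAi inputs, and the 6 muscle markers to 256 and 348 TPM against 3952 and 3805 TPM. The part of these differences in the input results was not tested.

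Of the 410 total mRNA rises tested in the inputs, 362 rose there too (88.3%) and 8 fell, with a median of 2.64. With equal medians 379 rose and 6 fell. Of 58 falls, 36 fell in the inputs (62.1%) and 2 rose, with a median of -1.23, and with equal medians 30 fell and 9 rose. In turn, 19.8% of the input rises and 1.32% of the input falls were calls in total mRNA. RpS10a was at 1.54 and 2.69 TPM in the control inputs and 43.6 and 49.3 TPM in the RNAi inputs (adjusted p = 3.95e-05), and blanks at 0.488 and 1.19 and 11.9 and 13 TPM (adjusted p = 2.28e-04). In contrast, dany (0.246 and 5.07 and 1.21 and 0.793 TPM, adjusted p = 0.564), Rpt3R (9.17 and 5.99 and 7.67 and 6.76 TPM, adjusted p = 0.913) and tut (38.8 and 9.21 and 7.91 and 12.2 TPM, adjusted p = 0.214) were not called in the inputs. Of the eggshell genes tested in the inputs, 16 of 18 chorion genes fell, and 21 of 25 vitelline membrane genes fell and 1 rose. Cp36 was at 3671 and 6277 TPM in the controls and 347 and 235 TPM in RNAi (log2 difference -4.07, adjusted p = 6.27e-05). Of 51 maternal and oocyte genes, 40 fell in the inputs and 0 rose. The 29 deadenylation, decapping and nonsense-mediated decay genes had 14 falls and 0 rises, and the 39 piRNA genes 13 falls and 5 rises. Over all genes tested in the inputs, 32.3% fell and 21.7% rose. The fall of tst there was -0.92 (adjusted p = 0.00585), from 32.4 and 30.3 to 18 and 14.4 TPM.

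**Figure D5:**
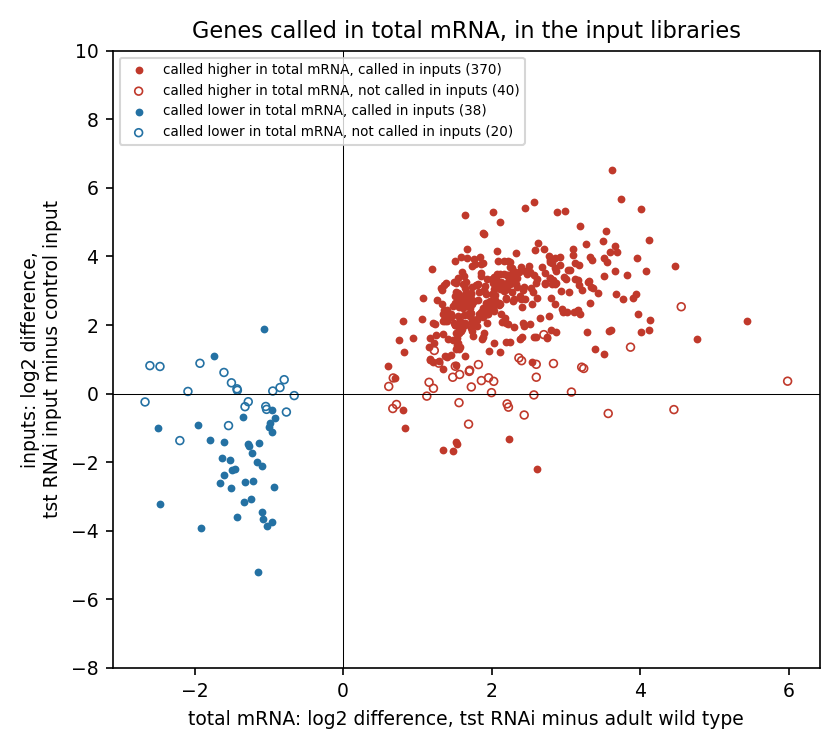
Genes called in total mRNA that were also tested in the inputs, placed by their log2(TPM + 1) difference between tst RNAi and adult wild type (x axis) and between tst RNAi input and control input (y axis). Filled points were called in the inputs in either direction and open points were not, and most red points lie above 0 while the blue points lie on both sides with more below it.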

How the data were processed

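Ovary poly(A) RNA was made into libraries with a NEXTflex directional kit, per the labels' protocols, and per the submitters' processing notes the tools were HISAT2 2.0.5 and featureCounts 1.5.1, with build dm6. The deposited values are log2 of TPM plus 0.5, read from the column sums. Without stated use of strand, counts of overlapping and antisense genes are uncertain. They were turned into log2(TPM + 1), a scale that understates changes of low genes. Genes with at least 1 TPM in 2 libraries of a fit were tested with limma 3.58.1 in R 4.3.3 (trend in the variance, two-sided, Benjamini-Hochberg at 0.05). The main fit held tst RNAi, tst mutant, adult wild type and young wild type, 2 libraries each and 3 residual degrees of freedom, blocked by replicate number. The strand label differs between replicates 1 and 2 in all 4 groups, and same-numbered deviations correlated at 0.620 to 0.766. The tst RNAi, control and pelo mutant inputs were fitted together, without a block. The fit was checked on simulated data.

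Gene names were matched to RefSeq Release 6, 8664 directly, 555 by an older name and 32 not. The comparison, members and 23 written lists were chosen with earlier results of these data known. Named were tst, of called genes with groups apart and a mean of 10 TPM the 20 largest rises and 12 largest falls, up to 4 members of each list by p, and the 10 most abundant genes. Other genes were named after their values were seen. Alternatives covered the block, libraries, pseudocount, filter, scaling and leaving out each library. Figures used Python 3.11.15 with matplotlib 3.10.9.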

Additional observations from a re-analysis of the deposited data

Results flagged for a closer look

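For 4 genes that fell in total mRNA, both tst RNAi libraries lay below both adult wild type libraries while both tst RNAi inputs lay above both control inputs. The difference between the total mRNA and input comparisons was not tested. The log2 difference in total mRNA was -2.60 for sosie, whose inputs were at 8.49 and 4.64 TPM in the controls and 12.5 and 11.3 TPM in RNAi (adjusted p = 0.0595). It was -2.47 for CG42821, with inputs at 2.42 and 5.44 and 7.16 and 7.06 TPM (adjusted p = 0.0811). For CG14798 it was -1.74, from 15.5 and 11.5 to 3.4 and 3.19 TPM, with inputs at 3.1 and 7.49 and 14.7 and 9.08 TPM (adjusted p = 0.0396). For Eip71CD, a methionine sulfoxide reductase gene, it was -0.85, from 58.1 and 58.6 to 33.4 and 30.6 TPM, with inputs at 41.5 and 36.5 and 43.3 and 45 TPM (adjusted p = 0.385). Only the input rise of CG14798 passed among these 4. None of the 4 falls was called without the block (adjusted p = 0.0666, 0.0808, 0.0804 and 0.166, in that order). The call of CG42821 was lost without RNAi replicate 2 (0.16), that of CG14798 without RNAi replicate 1 (0.099), and that of Eip71CD without any 1 library (0.158 to 0.352). Of the 2 control inputs, 1 has another labelled genotype than the adult wild type.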

How the results depend on the processing

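The number of genes called against adult wild type, 486 as reported, was 136 with no replicate block. In a fit of all 16 total mRNA libraries it was 212 with the block and 90 without it, and with tst RNAi and adult wild type alone 1322 with the block, on 1 residual degree of freedom, and 148 without it. It was 255 with a pseudocount of 5 TPM, 304 with quantile normalization and 113 to 389 without 1 library. A pseudocount of 0.5 TPM, both filters and equal medians kept it within 1.5 times. Against the mutant, 1430 genes were called as reported and 175 with no replicate block. The inputs gave 4548 genes and 2875 to 4758 without 1 library. Chorion genes called lower, 2 as reported, were 0 without the block and in both fits of 16 libraries, 17 and 0 with the 2 groups alone with and without the block, 1 with no filter, 1 with quantile normalization and 0 to 2 without 1 library. Muscle genes called higher, 17 as reported, were 10 and 9 in the fits of 16 libraries with and without the block and 12 to 16 without 1 library. Hemocyte and matrix genes, 12 as reported, were 4 without the block, 3 in the 16 libraries without it, 3 in the 2 groups alone without it, 7 with a pseudocount of 5 TPM and 3 to 10 without 1 library. Genes high in the bam RNAi input, 322 as reported, were 115 without the block, 150 and 66 in the 16 libraries with and without it, 512 and 128 in the 2 groups alone with and without it, 180 with a pseudocount of 5 TPM, 156 with quantile normalization and 87 to 276 without 1 library. The cause was not tested. No named gene turned its direction with a call. Of 66 named genes called, 28 kept the call without the block, 62 with equal medians and 45 with quantile normalization, and 26 kept it without each library in turn. List medians kept their sign under every alternative for the chorion, vitelline membrane, muscle, hemocyte, fat body, antimicrobial, detoxification, heat shock, piRNA and bam RNAi lists, and for no other list. Depth is unknown, and with 2 libraries a group a gene that was not called may still differ.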

Other observations

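The gene w differed between library sets as well as between the groups compared. It was between 0.213 and 1.28 TPM in the adult wild type, young wild type and tst mutant libraries, and at 84.3 and 77.0 TPM in tst RNAi. The pelo and hfp total mRNA libraries held 3.10 to 15.8 TPM. Among the inputs, the first control, labelled with the adult wild type genotype, held 146 TPM and the second, pelo1/CyO, 12.9 TPM, against 56.7 and 57.4 TPM in tst RNAi and 75.6 TPM in bam RNAi. Libraries with the same labelled genotype thus stood at 0.362 and 0.213 TPM in total mRNA and at 146 TPM in an input.

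Some of the more abundant rises lie outside the gene lists, and those given here were picked after their values were seen. The metallothionein gene MtnA was at 33.1 and 70.1 TPM in wild type and 299.7 and 377 TPM in tst RNAi (log2 difference 2.78, SE 0.25, adjusted p = 4.76e-04). The aquaporin gene Prip was at 401 and 316 TPM in wild type and 728 and 549 TPM in tst RNAi (0.83, adjusted p = 0.0103), a call lost without the block (0.204) and without any 1 library (0.0831 to 0.131). CG7443 was at 60.3 and 52.5 TPM in wild type and 562 and 747 TPM in tst RNAi (3.50, adjusted p = 6.07e-05). CG43134 was the most abundant rise, at 2264 and 1819 TPM in wild type and 9946 and 4234 TPM in tst RNAi (1.68, adjusted p = 0.00464), with replicate 1 more than 2-fold above replicate 2 in tst RNAi. Its call was lost without the block (0.232) and without RNAi replicate 1 (0.0871). Cyp4g1, an oenocyte cytochrome P450 of hydrocarbon synthesis, was at 14 and 9.26 TPM in wild type and 324 and 39.6 TPM in tst RNAi (3.21, adjusted p = 0.00665), a call lost without the block (0.412) and without RNAi replicate 1 (0.124). MtnA and CG7443 kept the call without the block and each library.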
